A study of Homo sapiens with 8 samples.

Results

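Knockdown of PPA2 was compared with a control hairpin in DLD1 cells kept under normoxia, using the 4 normoxia libraries of the 8 libraries in the series and the 1 deposited table that holds them. DLD1 is an established human colorectal adenocarcinoma cell line. In the knockdown group, 2 libraries came from DLD1 cells carrying a short hairpin RNA against PPA2 and kept under normoxia for 12 hours. In the control group, 2 libraries came from DLD1 cells with a control hairpin, labelled WT for genotype, under the same oxygen and for the same time. The remaining 4 libraries, from hypoxia, were not analysed here. All genes of the table took part. Of 60234 listed genes, 14090 with a mean of at least 1 RPKM (reads scaled to gene length and library size) over the 4 libraries were tested. The labels name neither another hairpin nor a rescue, and they do not say whether replicates came from separate cultures, so the p-values here reflect only the scatter among these 4 samples, which may be technical.

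PPA2 encodes the mitochondrial inorganic pyrophosphatase, which splits pyrophosphate, a by-product of many biosynthetic reactions, into phosphate inside the matrix. PPA1 is its cytosolic counterpart. Among the pathways followed here, hypoxia-inducible factors (HIFs) are transcription factors whose alpha subunits are marked for destruction by oxygen-dependent prolyl hydroxylases (EGLN proteins). When oxygen falls they pair with ARNT and switch on genes for glycolysis, glucose uptake and blood vessel growth. In cells of the gut lining, class I antigen presentation, contact with the underlying matrix and growth factor signalling are further functions followed by gene lists below.

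The 4 libraries separated by group. Across tested genes on the log2 scale, the correlation was 0.994 between the knockdown replicates and 0.995 between the control replicates, and 0.979 to 0.982 between libraries of different groups. Low RPKM values lie in steps set by whole reads, and from these steps the depth was estimated at 30725480 to 35735957 reads in the knockdown libraries and 28004663 to 35722660 reads in the control libraries. Transcripts of the mitochondrial genome took 12.1% and 11.4% of all RPKM in knockdown cells, against 11.2% and 10.7% in control cells. Of 12 colon epithelium markers, 9 were at 1 RPKM or more in all libraries, with sums of 3678 and 3593 RPKM in knockdown cells and 4135 and 3993 RPKM in control cells. Markers of other cell types were near 0. The 8 fibroblast markers summed to 0.464 to 0.566 RPKM, the 10 leukocyte markers to 1.69 to 2.48 RPKM with 5 of them at 0 in every library, the 5 listed endothelial markers to 1.51 to 2.24 RPKM, and the 5 neuroendocrine markers to 0.0655 to 0.550 RPKM.

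PPA2 itself (chromosome 4, bases 105369077 to 105474081, minus strand of GRCh38, from the GENCODE 29 annotation) was the largest change among all tested genes. It was at 5.88 and 5.74 RPKM in knockdown cells, against 79.8 and 84.1 RPKM in control cells, and the groups lay far apart. Its log2 fold change was −3.61 ± 0.06 (SE), a 12.2-fold lower value on the log2(RPKM + 1) scale on which all fold changes here are given (limma with Benjamini-Hochberg adjustment over all tested genes, adjusted p = 4.12e-06). All log2 fold changes are knockdown over control, so a positive one means higher in knockdown cells, and "rose" or "fell" is used only of genes with an adjusted p under 0.05. A signed value in brackets after a gene or its levels is its log2 fold change, with the SE where one follows ±. Because bulk RNA was measured, fewer cells of a type and less RNA per cell cannot be told apart.

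The other genes that make, carry or break down pyrophosphate and phosphate moved far less. Of 24 such genes 17 were tested, 0 rose and 7, PPA2 included, fell, against 22.5% of all tested genes that rose and 11.7% that fell. XPR1, the phosphate exporter of the plasma membrane, was at 7.30 and 7.80 RPKM in knockdown cells, against 11.1 and 11.7 RPKM in control cells, with a log2 fold change of −0.54 ± 0.07 and no overlap between groups. PPA1 was at 255 and 273 RPKM in knockdown cells, against 315 and 329.6 RPKM in control cells, a log2 fold change of −0.29 (limma, adjusted p = 0.0109) that lost its call without control replicate 2 (−0.26, adjusted p = 0.0636). Without control replicate 1 the list had 1 gene that rose and 4 that fell, and without control replicate 2 it had 0 and 3.

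The genes that lie beside PPA2 on chromosome 4 were looked at by position. Within 1 megabase on either side, 7 further genes were tested and 6 of them did not pass the test. These 6, TET2, ARHGEF38, INTS12, GSTCD, TBCK and AIMP1, had log2 fold changes between −0.11 and 0.20. NPNT, which encodes nephronectin, a matrix ligand of an integrin, was the exception and is among the largest rises described below. CXXC4 and GIMD1 were below the level minimum.

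Of the 14090 tested genes, 4818 (34.2%) passed an adjusted p under 0.05 (limma with Benjamini-Hochberg adjustment), 3165 (22.5%) rising and 1653 (11.7%) falling. Most of these changes were small. The median log2 fold change of all tested genes was 0.07, its 5th and 95th percentiles were −0.42 and 0.60, and the median SE was 0.08. Changes of at least 2-fold were found for 126 genes that rose (0.894%) and 62 that fell (0.44%). The groups did not overlap for 9938 genes (70.5%), of which 6225 (44.2%) were higher and 3713 (26.4%) lower in knockdown cells. Most tested genes thus had separate groups, so separation in a gene named below does not set it apart. With median ratio scaling of the RPKM values, 2298 genes rose and 2426 fell, so which direction held more calls depended on the scaling. Without control replicate 1, 2085 rose and 977 fell, and without control replicate 2, 2080 rose and 1093 fell.

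**Figure D1:**
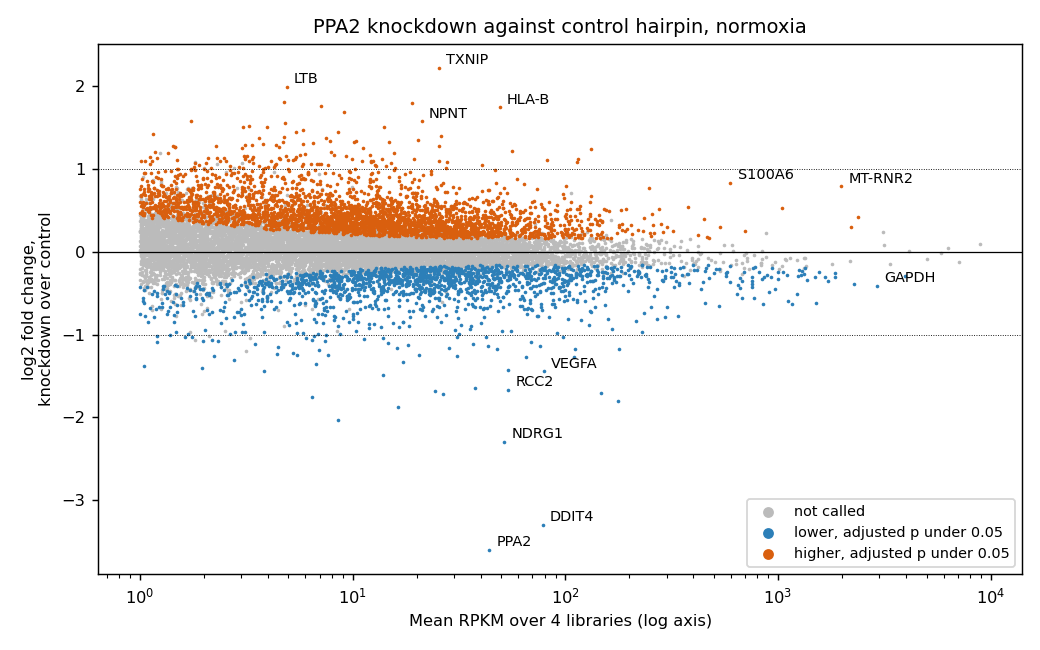
Log2 fold change of each tested gene (knockdown over control, y axis) against its mean RPKM over the 4 libraries (log x axis), coloured by call at an adjusted p under 0.05, with dotted lines at 2-fold. PPA2 (−3.61) and DDIT4 (−3.30) lie far below all others, and TXNIP (2.22) is the highest point.

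The direction of change differed with the level of the gene. Among 4601 genes with a mean of 1 to 5 RPKM, 19.4% rose and 4.39% fell. Among 725 genes with a mean of 100 RPKM or more, 15.6% rose and 34.6% fell, and their median log2 fold change was −0.11, against 0.13 for the genes of 1 to 5 RPKM. The pseudocount of 1 shrinks the fold changes of the low genes. By type of gene, 258 of 1216 tested long noncoding RNAs rose and 73 fell. The rises were 21.2% of these RNAs, near the 22.5% of all tested genes. Their share of falls was below the 11.7% of all tested genes. Of 865 tested pseudogenes 99 rose (11.4%) and 125 fell (14.5%).

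**Figure D2:**
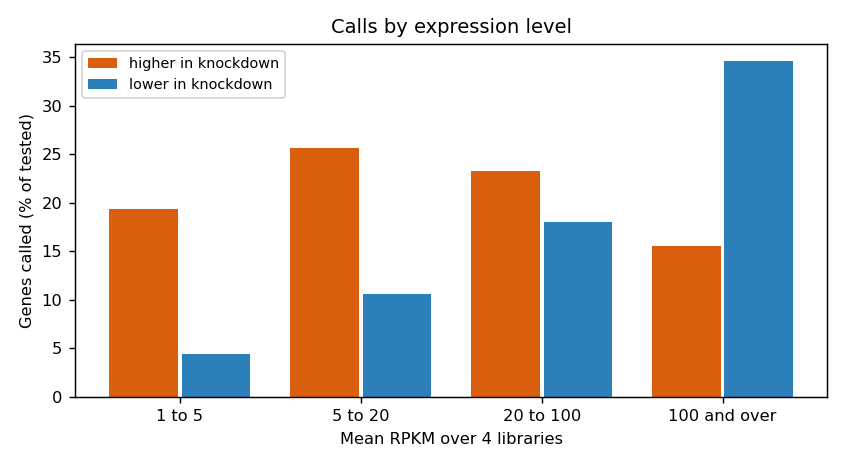
Share of tested genes that rose or fell in knockdown cells (y axis, percent) in 4 ranges of mean RPKM over the 4 libraries (x axis). The share that fell goes up from 4.39% at 1 to 5 RPKM to 34.6% at 100 RPKM and over.

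DDIT4 (REDD1, chromosome 10, bases 72273920 to 72276036, plus strand), which encodes an inhibitor of the growth kinase complex mTORC1, was at 13.6 and 13.6 RPKM in knockdown cells, against 154 and 132 RPKM in control cells, a log2 fold change of −3.30 ± 0.08 (limma, adjusted p = 2.33e-05). NDRG1, a differentiation and stress gene, was at 15.6 and 17.9 RPKM in knockdown cells, against 94.02 and 78.7 RPKM in control cells. Neither gene had a knockdown value near the control values. JUN, a subunit of the AP-1 transcription factor, was at 6.65 and 6.13 RPKM in knockdown cells, against 27.4 and 25.03 RPKM in control cells, and its log2 fold change was −1.88 ± 0.07. GDF15, a secreted stress cytokine, was at 85.6 and 71.9 RPKM in knockdown cells, against 305 and 249 RPKM in control cells (−1.80 ± 0.12). Its 2 values within each group spread more than those of JUN, but the groups stayed well apart.

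RCC2, a regulator of chromosome condensation, was at 25.5 and 25.2 RPKM in knockdown cells, against 83.01 and 82.6 RPKM in control cells, a log2 fold change of −1.67. RASSF3, of the Ras association domain family, was at 28.96 and 28.6 RPKM in knockdown cells, against 78.9 and 79.6 RPKM in control cells (−1.43). The replicates of both genes agreed closely, and the knockdown values were at a fraction of the control values. RPL22L1, the paralog of the ribosomal protein gene RPL22, was at 61.7 and 66.3 RPKM in knockdown cells, against 158 and 153 RPKM in control cells (−1.27), and RPL22 itself at 60.1 and 60.7 RPKM in knockdown cells, against 80.5 and 80.9 RPKM in control cells (−0.41). PHB2, a prohibitin of the inner mitochondrial membrane, was at 115 and 104 RPKM in knockdown cells, against 251 and 246 RPKM in control cells (−1.17). For each of these genes the groups did not overlap, which the choice of the largest falls required of RCC2, RASSF3 and RPL22L1. GNG5, a G protein gamma subunit, and TPRG1L also fell, by 1.76 and 1.49 on the log2 scale.

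The largest rise was that of TXNIP (chromosome 1, bases 145992435 to 145996600, minus strand), the thioredoxin-interacting protein that restrains glucose uptake. It was at 41.6 and 43.3 RPKM in knockdown cells, against 8.04 and 8.62 RPKM in control cells, with a log2 fold change of 2.22 ± 0.06 (limma, adjusted p = 3.99e-05). LTB, which encodes lymphotoxin beta, a tumour necrosis factor family ligand, was at 9.04 and 7.87 RPKM in knockdown cells, against 1.27 and 1.48 RPKM in control cells (1.99 ± 0.11). In both genes the groups were separated by far more than the replicates differed. WNT5A, a WNT ligand of the beta-catenin-independent branch, was at 11.1 and 11.9 RPKM in knockdown cells, against 2.62 and 2.78 RPKM in control cells (1.76). PCDH1, a protocadherin of epithelial contacts, was at 15.2 and 13.7 RPKM in knockdown cells, against 3.65 and 3.88 RPKM in control cells (1.69). NPNT, the neighbour of PPA2, was at 30.8 and 33.4 RPKM in knockdown cells, against 10.5 and 9.65 RPKM in control cells (1.58 ± 0.07, limma, adjusted p = 0.000179). All 3 genes were low in both control libraries and higher in both knockdown libraries.

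MDK, the growth factor midkine, was at 22.96 and 19.8 RPKM in knockdown cells, against 7.17 and 6.49 RPKM in control cells (1.51), and TNC, the matrix protein tenascin C, at 13.2 and 12.8 RPKM in knockdown cells, against 4.23 and 3.99 RPKM in control cells (1.45). SAA2, an acute phase protein, was at 36.9 and 39.4 RPKM in knockdown cells, against 12.9 and 14.9 RPKM in control cells (1.40). BTC, the epidermal growth factor receptor ligand betacellulin, was at 8.54 and 9.51 RPKM in knockdown cells, against 2.72 and 2.52 RPKM in control cells (1.47). None of these genes had overlapping groups, since the largest rises were chosen among genes without overlap. The log2 fold changes of TLE2, a Groucho-type corepressor, TSPAN3, a tetraspanin, and CYBRD1, a ferric reductase, were 1.52, 1.35 and 1.34. KRTAP3-1, a keratin-associated protein gene, had 1.81.

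**Figure D3:**
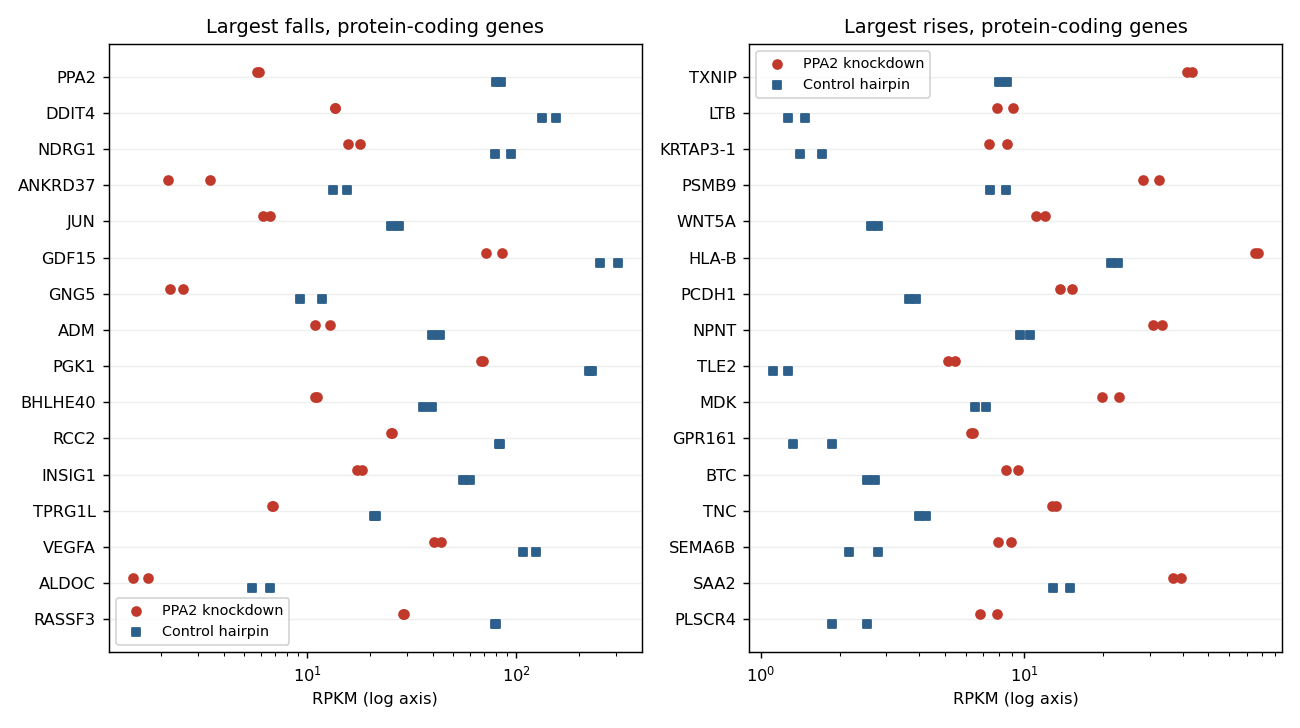
RPKM (log x axis) in each knockdown library (circles) and each control library (squares) for the 16 protein-coding genes with the largest falls (left) and the 16 with the largest rises (right), among genes whose higher group averaged at least 5 RPKM. Only called genes whose groups do not overlap were eligible, so the separation of circles and squares follows from the choice. DDIT4 is at 13.6 in both knockdown libraries.

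Measured by the amount of RPKM rather than by fold, the changes were in other genes. GAPDH, the glycolytic dehydrogenase, fell by the most and was at 2556 and 2443 RPKM in knockdown cells, against 3353 and 3308 RPKM in control cells, a log2 fold change of −0.41. LDHA, lactate dehydrogenase A, was at 871 and 912 RPKM in knockdown cells, against 1326 and 1362 RPKM in control cells (−0.59). Both were lower in each knockdown library than in each control library. The mitochondrial 16S ribosomal RNA MT-RNR2 gained the most RPKM and was at 2501 and 2521 RPKM in knockdown cells, against 1459 and 1439.9 RPKM in control cells (0.79). S100A6, a calcium-binding protein, was at 758 and 772 RPKM in knockdown cells, against 413 and 446 RPKM in control cells (0.83), and OLR1, a receptor for oxidised lipoprotein, at 305 and 320.3 RPKM in knockdown cells, against 179 and 186 RPKM in control cells (0.77). Of 13 tested mitochondrial mRNAs 2 rose, MT-ND1 and MT-ND5 (0.42 and 0.29), and 11 did not pass the test. The median log2 fold change of the 13 was 0.01, against 0.07 over all tested genes. MT-ND1 lost the call without knockdown replicate 1 and without control replicate 2. MT-ND5 lost it without knockdown replicate 1, without knockdown replicate 2 and without control replicate 1. Both lost it under median ratio scaling.

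Most tested HIF target genes fell. Of 47 tested members of a list of 57, 3 rose and 29 fell (61.7% of those tested, against 11.7% of all tested genes), and their median log2 fold change was −0.38, against 0.07 over all tested genes. Under median ratio scaling 3 rose and 33 fell. The genes that fell cover different functions. ADM, the vessel-widening peptide adrenomedullin, was at 10.9 and 12.9 RPKM in knockdown cells, against 42.9 and 39.6 RPKM in control cells (−1.72 ± 0.09), and VEGFA, the main vessel growth factor, at 40.3 and 43.7 RPKM in knockdown cells, against 125 and 108 RPKM in control cells (−1.44 ± 0.08). BHLHE40, a transcriptional repressor of the clock, was at 11.1 and 10.96 RPKM in knockdown cells, against 39.7 and 35.8 RPKM in control cells (−1.69 ± 0.07). ANKRD37, an ankyrin repeat protein, was at 3.43 and 2.16 RPKM in knockdown cells, against 15.4 and 13.2 RPKM in control cells (−2.03 ± 0.16). In these 4 genes the highest knockdown value stayed below the lowest control value, as the choice of the largest falls required. SLC2A1, the glucose transporter GLUT1, was at 254 and 242 RPKM in knockdown cells, against 456 and 397 RPKM in control cells (−0.78). MIR210HG, the host transcript of a hypoxia-induced microRNA, had a log2 fold change of −1.07.

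Some members did not follow. ERO1A, an oxidase of the endoplasmic reticulum, was at 91.5 and 103 RPKM in knockdown cells, against 77.9 and 72.9 RPKM in control cells (0.36), and P4HA2, a collagen prolyl hydroxylase, at 35.6 and 35.5 RPKM in knockdown cells, against 27.2 and 26.9 RPKM in control cells (0.38), so both rose, while the related hydroxylase P4HA1 fell (−0.39). WSB1, a ubiquitin ligase subunit, was the third gene that rose (0.36) and lost the call without knockdown replicate 2 and without control replicate 2. BNIP3L, a mitophagy receptor, was at 95.1 and 109 RPKM in knockdown cells, against 109 and 102 RPKM in control cells, with overlapping groups, and did not pass the test. CA9, the carbonic anhydrase widely used as a hypoxia marker, was below the level minimum, at 0.115 and 0.268 RPKM in knockdown cells, against 0.489 and 0.288 RPKM in control cells.

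The genes of the oxygen sensing machinery moved in both directions. EPAS1, which encodes HIF-2 alpha, was at 17.4 and 16.7 RPKM in knockdown cells, against 7.88 and 7.02 RPKM in control cells (1.10 ± 0.08; limma, adjusted p = 0.000479). HIF1A was at 62.7 and 66.1 RPKM in knockdown cells, against 47.7 and 48.8 RPKM in control cells (0.41 ± 0.05), and ARNT2, a partner subunit, at 10.8 and 10.8 RPKM in knockdown cells, against 6.30 and 6.56 RPKM in control cells (0.67 ± 0.07). These 3 mRNAs were higher in both knockdown libraries. EGLN3, a prolyl hydroxylase that is itself a HIF target, was at 16.8 and 17.6 RPKM in knockdown cells, against 42.00 and 37.3 RPKM in control cells (−1.16 ± 0.07), with no overlap. Of 11 tested genes of this kind 5 rose and 2 fell. The calls of ARNT, HIF1AN and EGLN1 were the uncertain ones. Without control replicate 1, 3 rose and 1 fell, without control replicate 2, 3 rose and 2 fell, and without knockdown replicate 2, 4 rose and 1 fell.

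**Figure D4:**
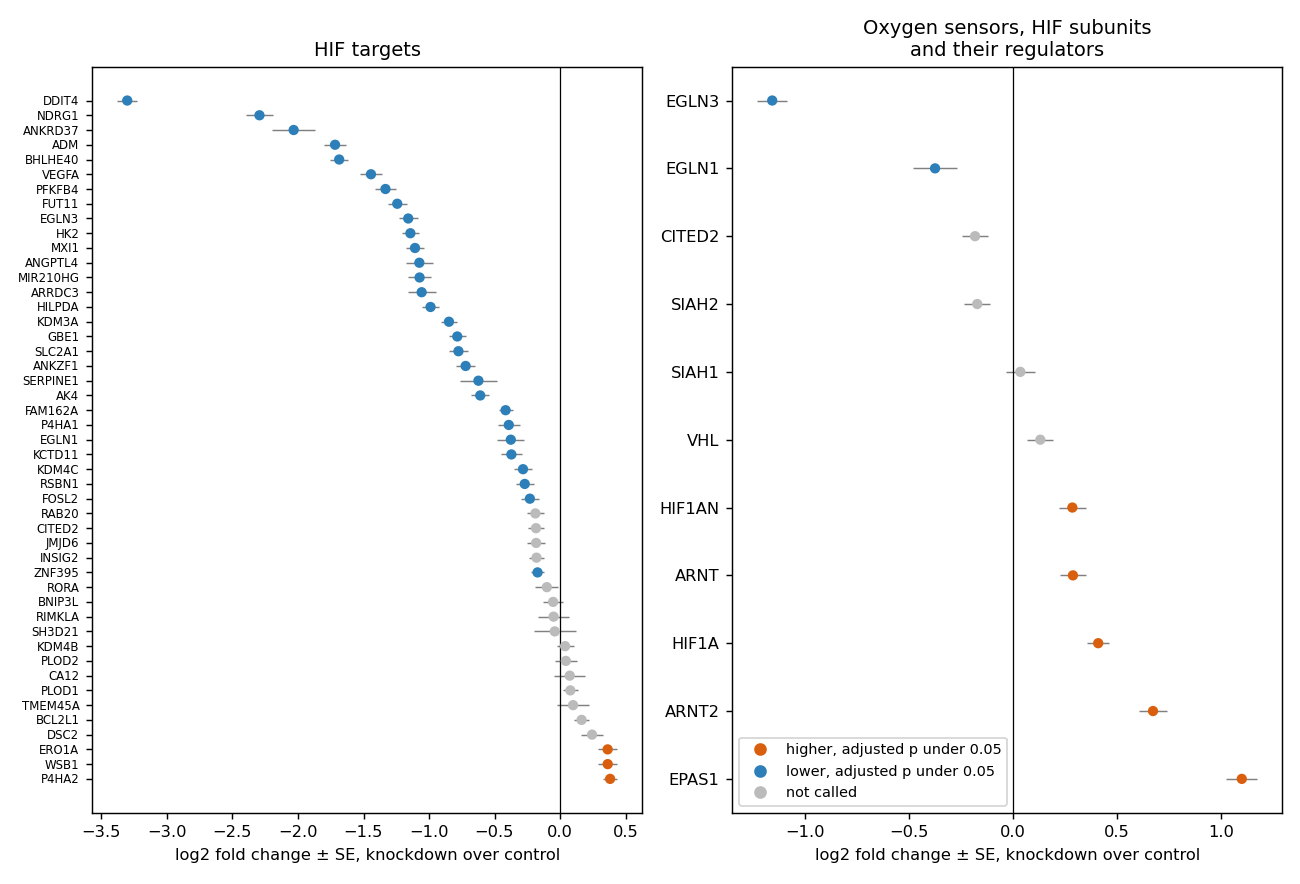
Log2 fold change with its SE (x axis, knockdown over control) of the tested HIF targets (left) and of the oxygen sensors, HIF subunits and their regulators (right), coloured by call. HIF targets run from DDIT4 at −3.30 to P4HA2 at 0.38, while EPAS1 at 1.10 and HIF1A at 0.41 lie on the positive side.

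The promoters of 3 of these genes are shown because they are among the HIF targets with the largest falls. They were taken from RefSeq (GRCh38.p14, from 250 bases before to 50 after the gene start), with a promoter for 6712 of the 14090 tested genes. Capitals mark the core of the HIF binding site, ACGTG or GCGTG read on either strand, so a CACGTG counts on both and E-box matches are included.
DDIT4 (chr10:72273674-72273973, plus strand): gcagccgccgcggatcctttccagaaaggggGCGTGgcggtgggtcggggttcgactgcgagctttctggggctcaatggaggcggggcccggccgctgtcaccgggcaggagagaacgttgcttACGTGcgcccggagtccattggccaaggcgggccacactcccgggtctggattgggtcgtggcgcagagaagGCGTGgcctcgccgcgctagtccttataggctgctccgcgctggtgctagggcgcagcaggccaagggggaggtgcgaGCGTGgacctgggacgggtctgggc
ANKRD37 (chr4:185396591-185396890, plus strand): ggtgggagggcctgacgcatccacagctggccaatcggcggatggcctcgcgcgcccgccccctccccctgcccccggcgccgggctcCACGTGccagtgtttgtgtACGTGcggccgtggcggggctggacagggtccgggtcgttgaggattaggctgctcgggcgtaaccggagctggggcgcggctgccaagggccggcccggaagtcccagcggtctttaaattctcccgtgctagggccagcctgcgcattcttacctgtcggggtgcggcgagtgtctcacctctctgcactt
ADM (chr11:10304823-10305122, plus strand): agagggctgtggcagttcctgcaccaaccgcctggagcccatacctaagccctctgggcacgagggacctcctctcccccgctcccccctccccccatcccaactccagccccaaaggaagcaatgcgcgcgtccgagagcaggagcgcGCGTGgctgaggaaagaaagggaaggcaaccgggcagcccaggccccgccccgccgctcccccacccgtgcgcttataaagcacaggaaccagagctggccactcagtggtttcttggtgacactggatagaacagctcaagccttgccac
DDIT4 had 4 matches, ANKRD37 had 3 and ADM had 1. The core is common in promoters, since 65.7% of the 6712 matched promoters held at least 1. Among the 26 tested HIF targets with a promoter, 84.6% held it, and among the 16 that fell 15 did. Among genes that changed at least 2-fold, the share was 67.7% of 31 that fell and 57.5% of 40 that rose. The longer E-box CACGTG, which contains the first core, was in 10.7% of all matched promoters and in 5 of the 26. A match is a description of the letters in the window and not a bound site.

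The glycolysis list shares genes with the HIF list. Of 29 tested genes 17 fell (58.6%, against 11.7% of all tested genes) and 2 rose, with a median log2 fold change of −0.31. PGK1, phosphoglycerate kinase, was at 67.96 and 69.1 RPKM in knockdown cells, against 229.7 and 221 RPKM in control cells (−1.70 ± 0.05; limma, adjusted p = 3.99e-05), the largest fall on this list. HK2, a hexokinase, was at 26.1 and 27.5 RPKM in knockdown cells, against 62.99 and 57.7 RPKM in control cells (−1.14), and PFKFB3, which makes the activator of phosphofructokinase, at 19.9 and 19.96 RPKM in knockdown cells, against 43.5 and 40.2 RPKM in control cells (−1.03). PDK1, the kinase that shuts the pyruvate dehydrogenase complex, was at 7.97 and 9.18 RPKM in knockdown cells, against 17.6 and 15.6 RPKM in control cells (−0.88). Groups did not overlap in any of them, as in 70.5% of all tested genes. The 2 rises, MPC2 and PDK3, both lost the call without control replicate 1 and without control replicate 2, and PDK3 also without knockdown replicate 2.

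Named genes around TXNIP and around mTORC1 changed in both directions, but many members of their lists did not pass the test. In the list of thioredoxin arrestins and glucose sensing, 2 of 12 tested genes rose, 4 fell and 6 did not pass. Among 16 tested nutrient sensors and mTORC1 inhibitors 4 rose, 1 fell and 11 did not pass. Over all tested genes 22.5% rose and 11.7% fell. Beside TXNIP, its relative ARRDC4 rose (0.89), and the other arrestin, ARRDC3, fell (−1.06). The glucose-sensing transcription factors MLXIP and MLX fell by 0.51 and 0.41. Among nutrient sensors and mTORC1 inhibitors, the fall of DDIT4 stood beside rises of the sestrins SESN2 (0.45) and SESN3 (0.68) and of PRKAA1, a catalytic subunit of the energy sensor AMPK (0.48). Among 15 tested clock genes 2 rose, 4 fell and 9 did not pass. NR1D1, the repressor REV-ERB alpha, was at 3.42 and 3.23 RPKM in knockdown cells, against 10.4 and 9.72 RPKM in control cells (−1.36), while ARNTL and CRY1 rose (0.57 and 0.59).

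The integrated stress response, the programme in which ATF4 raises amino acid supply genes, was mostly lower. Of 28 tested genes 3 rose and 18 fell (64.3%, against 11.7% of all tested genes), with a median of −0.34. ATF4 itself was at 119 and 112 RPKM in knockdown cells, against 204 and 203 RPKM in control cells (−0.81 ± 0.05; limma, adjusted p = 0.000409). SLC7A5, a carrier of large neutral amino acids, was at 67.1 and 59.7 RPKM in knockdown cells, against 130.1 and 131 RPKM in control cells (−1.03), and SLC7A11, the cystine carrier, at 3.17 and 3.28 RPKM in knockdown cells, against 6.63 and 6.57 RPKM in control cells (−0.85). The groups were apart for ATF4 and for both carriers. JDP2, an AP-1 repressor, and SESN2 rose (0.70 and 0.45). Of 20 tested cytosolic aminoacyl-tRNA synthetases 0 rose and 12 fell, led by AARS1 (−0.63) and YARS1 (−0.58).

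JUN is 1 of the immediate early genes, which growth factor signalling switches on within minutes. Of 36 tested genes of this group and of the feedback on MAP kinase signalling 5 rose and 18 fell, with a median of −0.24. Those are 13.9% and 50%, against 22.5% and 11.7% of all tested genes. EGR1 was at 29.9 and 28.1 RPKM in knockdown cells, against 69.03 and 64.6 RPKM in control cells (−1.18 ± 0.06), and FOS, the partner of JUN, at 5.66 and 5.62 RPKM in knockdown cells, against 11.4 and 11.3 RPKM in control cells (−0.90 ± 0.07). DUSP6, a phosphatase that dampens ERK, was at 49.03 and 49.3 RPKM in knockdown cells, against 85.02 and 81.7 RPKM in control cells (−0.75 ± 0.05). All 3 transcripts were lower in both knockdown libraries. BTG2, an antiproliferative gene, went the other way (0.86), as did DUSP4 (0.68) and IER5 (0.54), and 3 genes rose without control replicate 2. In the epidermal growth factor family, ERRFI1, an inhibitor of the receptor, was at 150.1 and 159 RPKM in knockdown cells, against 316 and 290.3 RPKM in control cells (−0.97), and the receptor ERBB3 fell (−0.72), while the ligands BTC and TGFA rose (1.47 and 0.43).

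Cholesterol synthesis and uptake was mostly lower. Of 27 tested genes 18 fell (66.7%, against 11.7% of all tested genes), and the median was −0.43. INSIG1, the sterol-responsive anchor of the SREBP machinery, was at 17.3 and 18.3 RPKM in knockdown cells, against 59.8 and 55.7 RPKM in control cells (−1.64 ± 0.06; limma, adjusted p = 0.000124). HMGCS1, of the first steps of synthesis, was at 26.99 and 27.8 RPKM in knockdown cells, against 57.3 and 57.2 RPKM in control cells (−1.04). The groups overlapped in neither gene. The 1 gene that rose, MYLIP (0.42), encodes a ubiquitin ligase. Among fatty acid genes SCD, the stearoyl-CoA desaturase, was at 65.1 and 70.00 RPKM in knockdown cells, against 161 and 147 RPKM in control cells (−1.18), FASN, the fatty acid synthase, fell (−0.62), and CPT1A, which brings fatty acids into mitochondria, rose (0.68).

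Chaperone genes of the heat shock response fell more often than they rose. Of 22 tested genes 13 fell (59.1%) and 5 rose (22.7%), with a median of −0.23. Over all tested genes 11.7% fell and 22.5% rose. DNAJB1, a co-chaperone of HSP70, was at 116 and 113 RPKM in knockdown cells, against 222 and 216 RPKM in control cells (−0.93 ± 0.05; limma, adjusted p = 0.000235). HSPA1B and HSPA1A, nearly identical genes of inducible HSP70 that can share reads, had log2 fold changes of −1.27 and −1.25. HSF2, a heat shock factor, rose (0.59), and 3 genes rather than 5 rose without knockdown replicate 2 or without either control replicate. In the endoplasmic reticulum, of 26 tested genes 6 rose and 6 fell, 23.1% each, against 22.5% and 11.7% of all tested genes. Among them XBP1, a transcription factor of the unfolded protein response, fell (−0.58), and DNAJB9 rose (0.53). Those endoplasmic reticulum counts were 2 and 3 without control replicate 1, 3 and 3 without control replicate 2, and 3 rises without knockdown replicate 2.

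The promoters of both HSP70 genes hold 1 match each to the core of the heat shock element, GAANNTTC or TTCNNGAA, in capitals.
HSPA1B (chr6:31827488-31827787, plus strand): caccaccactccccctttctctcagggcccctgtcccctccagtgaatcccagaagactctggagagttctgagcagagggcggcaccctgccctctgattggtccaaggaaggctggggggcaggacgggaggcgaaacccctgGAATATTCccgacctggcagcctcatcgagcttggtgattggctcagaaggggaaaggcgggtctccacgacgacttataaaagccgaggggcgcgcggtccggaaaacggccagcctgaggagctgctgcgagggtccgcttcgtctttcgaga
HSPA1A (chr6:31815293-31815592, plus strand): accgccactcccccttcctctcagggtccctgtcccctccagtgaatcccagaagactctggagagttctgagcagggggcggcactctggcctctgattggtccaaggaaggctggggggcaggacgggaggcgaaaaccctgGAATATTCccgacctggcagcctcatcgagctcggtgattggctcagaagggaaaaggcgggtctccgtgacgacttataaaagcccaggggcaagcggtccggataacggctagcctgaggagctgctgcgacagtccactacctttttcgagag
This core was in 9.54% of the 6712 matched promoters, in 7 of 11 tested heat shock genes with a promoter, in 3 of the 7 that fell and in 2 of the 2 that rose. HSPH1, a chaperone that fell (−0.57), held none. The other motifs searched, on both strands, had the following shares. The sterol regulatory element TCACNCCAC was in 1 of 16 cholesterol genes (0.998% of all), the amino acid response core TGATGNAA in 2 of 12 stress response genes (1.3% of all), the AP-1 site TGANTCA in 1 of 20 immediate early genes (4.2% of all), and the antioxidant core TGACNNNGC in 4 of 13 NRF2 targets (15.5% of all). The promoters of INSIG1, GDF15, JUN and NQO1 held no match to the motif of their list in this window.

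Class I antigen presentation, by which cells display peptides cut by the proteasome, was mostly higher. Of 25 tested genes 19 rose (against 22.5% of all tested genes) and 1 fell, and the median was 0.48. HLA-B (chromosome 6, bases 31269491 to 31357188, minus strand) was at 77.4 and 74.98 RPKM in knockdown cells, against 21.3 and 22.7 RPKM in control cells (1.75 ± 0.06; limma, adjusted p = 5.88e-05). HLA-C was at 199 and 177 RPKM in knockdown cells, against 134 and 133 RPKM in control cells (0.49), and B2M, the shared light chain, at 121 and 136 RPKM in knockdown cells, against 76.6 and 70.2 RPKM in control cells (0.80 ± 0.07). All 3 were higher in each knockdown library than in each control library, and reads of the closely similar HLA genes may be split between them. The immunoproteasome subunit PSMB9 was at 32.4 and 28.2 RPKM in knockdown cells, against 7.42 and 8.51 RPKM in control cells (1.80 ± 0.09), and PSMB8 at 62.1 and 59.4 RPKM in knockdown cells, against 34.1 and 33.4 RPKM in control cells (0.83 ± 0.05). The peptide transporter genes TAP1 and TAP2 rose by 0.78 and 0.60 on the log2 scale, and the trimming peptidase ERAP1 by 0.88. Groups overlapped in none of these genes, as in 70.5% of all tested genes. HLA-E, NLRC5, MICA and MICB did not pass the test, and CALR, a chaperone also on the list, fell (−0.18), a call lost without knockdown replicate 2 and without either control replicate.

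Class II presentation was hardly measurable. Of 15 genes only HLA-DMA reached the level minimum, at 4.87 and 4.31 RPKM in knockdown cells, against 5.47 and 5.02 RPKM in control cells, and it did not pass the test. CIITA, the class II activator, was below the minimum, at 1.22 and 1.41 RPKM in knockdown cells, against 0.391 and 0.458 RPKM in control cells.

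A pair of class I promoters is shown for the interferon response element core (GAAA, 2 bases of any kind, then GAAA, in capitals, on either strand). They were chosen after the matches were seen, since PSMB9 and HLA-B, which rose more, hold none.
B2M (chr15:44711267-44711566, plus strand): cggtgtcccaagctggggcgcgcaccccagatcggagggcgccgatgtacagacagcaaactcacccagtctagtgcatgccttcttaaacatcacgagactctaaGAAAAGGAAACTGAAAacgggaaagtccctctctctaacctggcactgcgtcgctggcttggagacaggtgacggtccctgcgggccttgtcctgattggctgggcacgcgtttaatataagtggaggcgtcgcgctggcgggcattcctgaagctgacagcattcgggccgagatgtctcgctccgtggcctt
TAP2 (chr6:32838690-32838989, minus strand): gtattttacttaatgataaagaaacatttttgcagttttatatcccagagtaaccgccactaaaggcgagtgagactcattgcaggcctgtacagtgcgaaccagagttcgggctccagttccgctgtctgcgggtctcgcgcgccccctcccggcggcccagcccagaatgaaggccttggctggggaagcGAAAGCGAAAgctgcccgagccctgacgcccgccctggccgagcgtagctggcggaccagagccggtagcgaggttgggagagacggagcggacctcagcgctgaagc
B2M had 2 matches, which overlap, and TAP2 had 1. The core was in 2.73% of all matched promoters, in 7 of 14 tested class I genes with a promoter and in 7 of the 11 that rose.

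Interferon-stimulated genes and NF-kB targets rose in part. Of 36 tested interferon-stimulated genes 19 rose and 2 fell (median 0.25). Those are 52.8% and 5.56%, against 22.5% and 11.7% of all tested genes. Under median ratio scaling 14 rose and 2 fell, and fewer rose when either control replicate was left out. UBE2L6, which attaches the ubiquitin-like ISG15, was at 14.9 and 13.4 RPKM in knockdown cells, against 7.16 and 6.94 RPKM in control cells (0.91), and IFIT3, an antiviral protein, at 3.26 and 3.29 RPKM in knockdown cells, against 1.36 and 1.14 RPKM in control cells (0.93). OAS3, which senses double-stranded RNA, was at 71.6 and 70.9 RPKM in knockdown cells, against 87.5 and 90.6 RPKM in control cells and fell (−0.32). The 3 genes each had separate groups. Of 31 tested NF-kB targets, cytokines and chemokines 15 rose (48.4%) and 3 fell (9.68%), with a median of 0.32. IL32, a cytokine, was at 17.03 and 16.9 RPKM in knockdown cells, against 7.79 and 7.11 RPKM in control cells (1.09), ICAM1, an adhesion molecule for leukocytes, at 25.4 and 25.5 RPKM in knockdown cells, against 13.8 and 12.96 RPKM in control cells (0.88), and RELB, an NF-kB subunit, at 16.97 and 14.1 RPKM in knockdown cells, against 8.61 and 8.33 RPKM in control cells (0.80). Chemokines split, since CXCL1 and CXCL16 rose (0.66 and 0.63) while CXCL8 and CXCL3 fell (−0.49 and −0.50), and the cytokine LIF fell too (−0.44).

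Genes of the matrix and its receptors were mostly higher. Of 32 tested integrins, laminins and matrix genes 24 rose (75%, against 22.5% of all tested genes) and 1 fell, with a median of 0.48. PLAU, the urokinase protease, was at 7.32 and 7.04 RPKM in knockdown cells, against 2.41 and 2.13 RPKM in control cells (1.32 ± 0.09), and HSPG2, the basement membrane proteoglycan perlecan, at 7.38 and 6.77 RPKM in knockdown cells, against 2.71 and 2.54 RPKM in control cells (1.15 ± 0.09). LAMB2, a laminin chain, was at 38.4 and 36.9 RPKM in knockdown cells, against 22.2 and 20.8 RPKM in control cells (0.78 ± 0.06). In each of them both knockdown values lay above both control values. The integrin subunits ITGA2, ITGB1 and ITGAV rose by 0.74, 0.60 and 0.56 on the log2 scale. ITGA5, the fibronectin receptor subunit, was the member that fell, at 9.91 and 9.68 RPKM in knockdown cells, against 17.8 and 15.2 RPKM in control cells (−0.69).

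Of 11 tested protocadherins and cell adhesion genes 6 rose and 0 fell, among them NECTIN1, a junctional adhesion receptor, at 17.9 and 16.2 RPKM in knockdown cells, against 6.55 and 7.49 RPKM in control cells (1.17), and CADM4 (1.11). Of 31 tested axon guidance genes, which also steer cell contacts in epithelia, 19 rose and 2 fell (median 0.35). The rises were 54.5% of the adhesion list and 61.3% of the axon guidance list, against 22.5% of all tested genes. NTN4, a netrin, was at 20.3 and 21.3 RPKM in knockdown cells, against 9.46 and 9.29 RPKM in control cells (1.07 ± 0.06), and SEMA3A, a semaphorin, at 16.1 and 16.5 RPKM in knockdown cells, against 8.69 and 8.49 RPKM in control cells (0.85 ± 0.06). The receptors NRP1 and NRP2 rose by 0.40 and 0.66, and EPHB2, an ephrin receptor of the crypt, fell (−0.40). For all 5 the groups were apart, as for 70.5% of all tested genes.

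Of 29 tested S100 proteins, annexins and tumour surface genes 17 rose and 4 fell (median 0.26). Those are 58.6% and 13.8%, against 22.5% and 11.7% of all tested genes. S100A4, a calcium-binding protein linked to migration, was at 148 and 162 RPKM in knockdown cells, against 72.9 and 71.98 RPKM in control cells (1.09 ± 0.06), and CD82, a tetraspanin, at 9.24 and 9.17 RPKM in knockdown cells, against 4.33 and 3.94 RPKM in control cells (0.99 ± 0.08). S100P fell and was at 27.3 and 29.2 RPKM in knockdown cells, against 54.3 and 50.3 RPKM in control cells (−0.87 ± 0.06). Thus members of the same family moved in opposite directions, each with groups that did not overlap. Of 24 tested YAP and TEAD targets 12 rose (50%) and 0 fell, and fewer rose without control replicate 2. Among them CRIM1 and F3, the tissue factor gene, were at 0.75 and 0.75.

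Of 18 tested genes of the retinoid, vitamin D and xenobiotic response 9 rose and 0 fell. The cytochromes CYP1A1 and CYP1B1, targets of the dioxin receptor AHR, were at 2.97 and 3.17 RPKM in knockdown cells, against 0.927 and 1.20 RPKM in control cells (0.98), and at 22.9 and 26.4 RPKM in knockdown cells, against 14.04 and 12.4 RPKM in control cells (0.85). AHR rose too (0.54). In the WNT list 10 of 42 tested genes rose and 4 fell, near the shares of 22.5% and 11.7% of all tested genes. Among them WNT5A, WNT10A (0.77) and the receptor FZD6 (0.59) rose, while RNF43, a ligase that removes WNT receptors, was at 12.8 and 12.3 RPKM in knockdown cells, against 24.9 and 23.8 RPKM in control cells (−0.90), and the beta-catenin target MYC at 39.98 and 37.99 RPKM in knockdown cells, against 65.1 and 60.4 RPKM in control cells (−0.67). Both were lower in each knockdown library. Among inhibitors of cyclin-dependent kinases, CDKN1A (p21) and CDKN2C (p18) rose (0.56 and 0.88) and CDKN1C (p57) fell (−0.85). FAS, a death receptor, was at 11.1 and 12.05 RPKM in knockdown cells, against 5.77 and 5.46 RPKM in control cells (0.93).

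Epithelial and colonic genes changed without a common direction. Of 35 tested junction and keratin genes 13 rose and 6 fell (37.1% and 17.1%, against 22.5% and 11.7% of all tested genes). Fewer of these were called when either control replicate was left out. KRT20, a keratin of mature colonocytes, was at 54.2 and 56.1 RPKM in knockdown cells, against 27.4 and 24.95 RPKM in control cells (1.05 ± 0.06), and CDH17, an intestinal cadherin, at 155 and 161 RPKM in knockdown cells, against 72.6 and 71.5 RPKM in control cells (1.12 ± 0.05). CLDN2, a pore-forming claudin, was at 12.00 and 10.2 RPKM in knockdown cells, against 25.7 and 25.1 RPKM in control cells (−1.13 ± 0.08), and KRT19 at 370.3 and 345 RPKM in knockdown cells, against 576 and 520.2 RPKM in control cells (−0.61 ± 0.07). The first pair was higher and the second lower in both knockdown libraries. Among 22 tested genes of colon identity 4 rose (18.2%) and 7 fell (31.8%). VIL1, the microvillus protein villin, was at 0.550 and 0.689 RPKM in knockdown cells, against 3.24 and 3.35 RPKM in control cells (−1.41), and DPP4, a brush border peptidase, at 4.59 and 4.68 RPKM in knockdown cells, against 1.86 and 2.12 RPKM in control cells (0.92). Of 21 genes of the mesenchymal state 14 were below the level minimum, VIM, ZEB1 and TWIST1 among them. Of the 7 tested 3 rose (42.9%, against 22.5% of all tested genes) and 0 fell, with a median of 0.28.

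Lists of nuclear genes for mitochondrial proteins differed in their counts. Over all tested genes 22.5% rose and 11.7% fell. Of 18 tested mitochondrial chaperones and proteases 0 rose and 10 fell (median −0.29), with the protease subunit CLPP at 35.2 and 27.00 RPKM in knockdown cells, against 50.9 and 50.3 RPKM in control cells (−0.70) and the protease LONP1 at 40.6 and 37.1 RPKM in knockdown cells, against 61.6 and 57.1 RPKM in control cells (−0.60). Of 38 tested nuclear subunits of respiratory complexes II to V 2 rose and 11 fell, and of 36 in complex I 3 rose and 8 fell. Those counts are sensitive, since 5 genes of complexes II to V fell without control replicate 2, 7 without control replicate 1, 18 without knockdown replicate 1 and 24 under median ratio scaling. In complex I, 0 rose and 5 fell without control replicate 2, and 1 rose without knockdown replicate 1. Of 27 tested genes of mitochondrial DNA replication and transcription 5 rose and 6 fell (18.5% and 22.2%). Of 22 of mitophagy and mitochondrial dynamics 6 rose and 3 fell (27.3% and 13.6%), near the shares of all tested genes. In the replication and transcription list 12 fell under median ratio scaling, 10 fell without knockdown replicate 1, 3 rose without control replicate 1, and 3 rose and 3 fell without control replicate 2. In the mitophagy and dynamics list 1 fell without control replicate 1, and 3 rose and 1 fell without control replicate 2. In the TCA cycle and glutamine list 12 of 31 fell, among them IDH1, the cytosolic isocitrate dehydrogenase (−0.59).

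**Figure D5:**
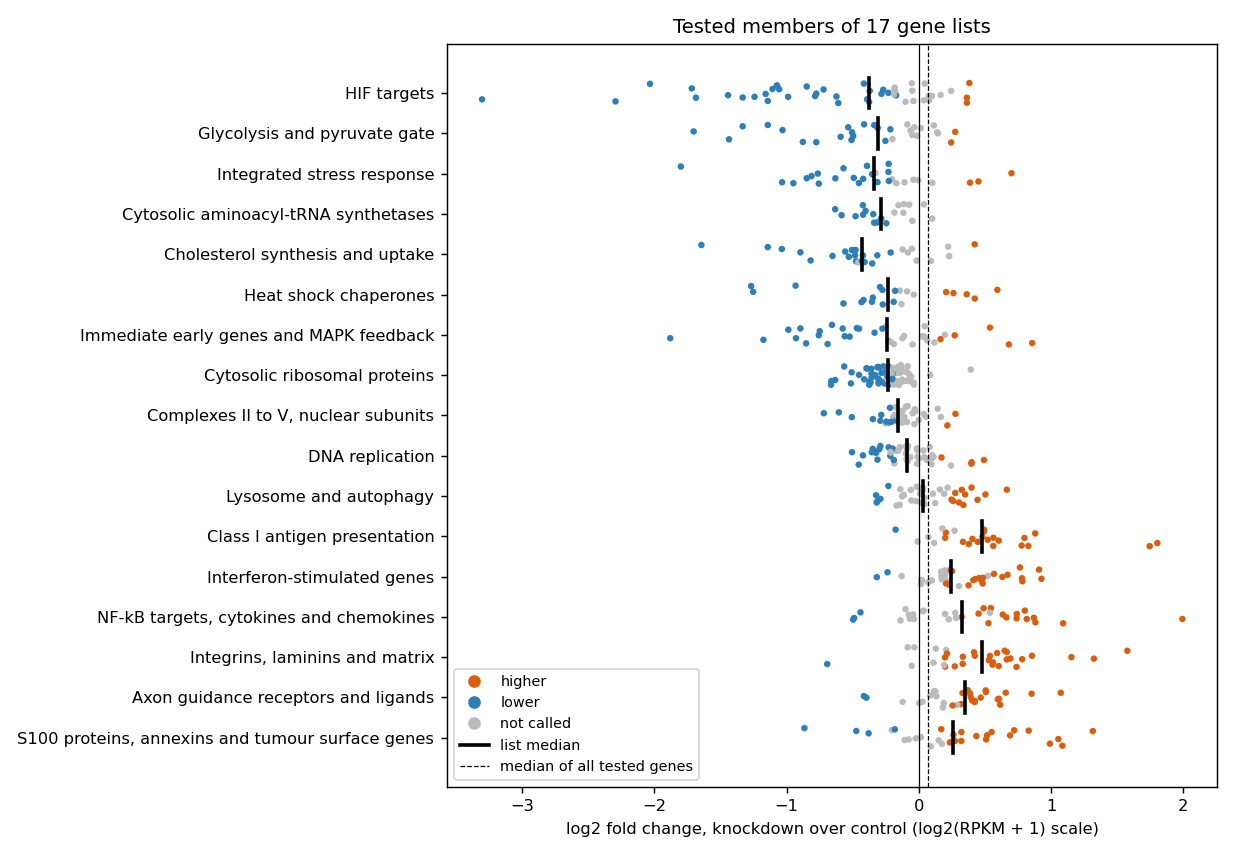
Log2 fold change (x axis, knockdown over control) of each tested member of 17 gene lists, coloured by call, with the list median as a thick bar and the median of all tested genes, 0.07, as a dashed line. Medians run from −0.43 for cholesterol synthesis to 0.48 for class I antigen presentation and for integrins, laminins and matrix.

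Among genes of protein and RNA production, falls outnumbered rises. The shares that fell were 58.1% of ribosomal protein genes, 40.6% of splicing regulators and 28.9% of DNA replication genes, against 11.7% of all tested genes. Among all tested genes with a mean of 100 RPKM or more, 34.6% fell and the median log2 fold change was −0.11. Of 74 tested cytosolic ribosomal proteins 0 rose and 43 fell (median −0.23), with 23 falls without control replicate 2. RPS9 was at 429 and 387 RPKM in knockdown cells, against 665 and 625 RPKM in control cells (−0.66), and RPL3 at 928 and 892 RPKM in knockdown cells, against 1447 and 1375 RPKM in control cells (−0.63). Ribosomal protein genes have many processed copies, so reads may be split between them. Of 32 tested splicing regulators 13 fell and 1 rose, 7 falling without control replicate 2, and HNRNPA1 had a log2 fold change of −0.55. Of 45 tested DNA replication genes 13 fell and 4 rose, 8 falling without either control replicate and 2 rising without control replicate 1 or knockdown replicate 2, with the helicase subunits MCM6 and MCM2 at −0.51 and −0.42 and the S phase cyclin CCNE1 at 0.49.

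Redox, iron and noncoding genes complete the description. Of 29 tested NRF2 targets 11 fell (37.9%, against 11.7% of all tested genes) and 2 rose, and 17 fell under median ratio scaling. NQO1, a quinone reductase, was at 199 and 191 RPKM in knockdown cells, against 334 and 353 RPKM in control cells (−0.81 ± 0.05). ABCC3, an efflux pump, was at 36.2 and 33.9 RPKM in knockdown cells, against 16.6 and 15.1 RPKM in control cells (1.10 ± 0.07). The reductase was lower and the pump higher in both knockdown libraries. Of 28 tested iron and haem genes 9 rose (32.1%, against 22.5% of all tested genes) and 8 fell (28.6%), with a median of −0.05. Under median ratio scaling 5 rose and 9 fell, and fewer rose without control replicate 2. The iron storage gene FTL was at 708 and 631 RPKM in knockdown cells, against 1021 and 1052 RPKM in control cells (−0.63), and the transferrin receptor TFRC at 108 and 118 RPKM in knockdown cells, against 154 and 160.2 RPKM in control cells (−0.47), and both transcripts were lower in each knockdown library. Of long noncoding RNAs, NEAT1, the scaffold of nuclear paraspeckles, was at 105 and 113 RPKM in knockdown cells, against 166 and 157 RPKM in control cells (−0.56), H19, an imprinted transcript, at 64.3 and 54.05 RPKM in knockdown cells, against 98.99 and 89.1 RPKM in control cells (−0.66), and MIR22HG, the host of a microRNA, at 11.1 and 12.3 RPKM in knockdown cells, against 4.03 and 4.01 RPKM in control cells (1.34). The antisense gene WNT5A-AS1 rose along with WNT5A, but whether strand was used in the counting is not given in the sources used here, so reads of such overlapping pairs may not be told apart.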

How the data were processed

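Poly(A) RNA was sequenced from directional libraries, per the labels. The submitters' processing notes name cutadapt 1.18 and Trimmomatic 0.35 for trimming, FastQC, and HISAT2 2.1.0 with the GRCh38 build. How reads were counted, and on which gene models, is not given in the sources used here. Normoxia values were deposited by the authors as RPKM for each gene symbol. Per the file headers no counts were included, so a count model was not used. Depth was estimated from the steps of low RPKM values, of which 89.7% to 90.5% lay within 0.02 of a whole read for genes of up to 20 reads.

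Values were tested as log2(RPKM + 1) for genes with a mean of at least 1 RPKM, using limma 3.58.1 (empirical Bayes with a trend) under R 4.3.3, with Benjamini-Hochberg adjustment over 14090 genes and a threshold of 0.05. The pseudocount understates fold changes of low genes. An exact permutation test of 2 against 2 libraries cannot go below a two-sided p of 0.333. Tables and figures were made with Python 3.11.15, numpy 2.4.6, pandas 2.3.3 and matplotlib 3.10.9. Coordinates are from GENCODE 29 for the 13477 tested symbols found there once.

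The comparison, the 56 gene lists, the marker lists and the motifs were chosen with earlier results of these data known, so no list was given a test. Lists are described by counts of called genes and medians. Named genes were PPA2 and PPA1, and the 25 largest rises and falls by fold. Those rises and falls came from called genes whose groups did not overlap and whose higher group averaged at least 5 RPKM. Also named were the 10 largest by RPKM and the 5 largest among long noncoding RNAs. Further ones were up to 4 members a list in each direction, members against their list and neighbours of PPA2. Some genes that the rule names are not reported here, and some members outside it were named after their values were seen. Alternatives were other pseudocounts, level minimums, scalings and thresholds, a robust fit, a replicate block and leaving out each library. The steps were tested on simulated data.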

Additional observations from a re-analysis of the deposited data

How the results depend on the processing

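With 2 libraries a group, the spread is estimated mainly across genes. Of 375 named genes with a call, 355 kept it under median ratio scaling and 274 at an adjusted p under 0.01. Testing all genes above 0 kept 265 of them. Each library left out cost some of these calls, and none of the 375 reversed under any alternative run. Named genes were mostly picked by the size of their change, so they do not stand for all calls. Of all 4818 calls, 3951 were kept under median ratio scaling and 2171 when all genes above 0 were tested. Leaving out 1 library at a time, where the lone library is assumed to vary like the others, gave 2080 to 2782 genes that rose and 977 to 1770 that fell, and 128 to 168 and 65 to 77 at 2-fold. Testing all 34609 genes above 0 gave 1572 that rose and 777 that fell, and an adjusted p under 0.01 gave 1407 and 740. At 2-fold, a pseudocount of 0.1 gave 341 that rose and 108 that fell, a pseudocount of 0.01 gave 380 and 119, and a mean minimum of 5 RPKM gave 60 that rose. The cause was not tested. Leaving out mitochondrial genome genes from the scaling gave 3974 that rose and 1291 that fell.

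The replicate numbers of both groups do not mark a shared source in the labels, and the deviations of same-numbered libraries from their group means correlated at 0.0399 across genes. A fit with the replicate number as a block gave 3269 genes that rose and 1791 that fell. Counts of 1 or 2 genes against the direction of the lists described moved by at most 2 genes when a library was left out. Estimated depths of 28004663 to 35735957 reads limit genes near the level minimum.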

Other observations

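Of 17 tested checkpoint and natural killer cell ligand genes 6 rose and 1 fell (against 22.5% and 11.7% of all tested genes, with a median log2 fold change of 0.15, against 0.07 over all tested genes). CD47, which signals to phagocytes not to engulf the cell, was at 15.9 and 17.1 RPKM in knockdown cells, against 9.56 and 8.72 RPKM in control cells (0.79 ± 0.07; limma, adjusted p = 0.0012). TNFRSF14, a receptor that binds both stimulating and inhibiting partners on lymphocytes, was at 2.13 and 1.92 RPKM in knockdown cells, against 0.576 and 1.01 RPKM in control cells (0.76 ± 0.16), a call lost without either knockdown replicate. Both genes were higher in each knockdown library than in each control library.

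Among 26 tested carriers of the inner mitochondrial membrane 6 rose (23.1%, near the 22.5% of all tested genes) and 10 fell (38.5%, against 11.7%). Fewer fell without control replicate 1, and fewer rose without control replicate 2. SLC25A1, which exports citrate for lipid synthesis, was at 35.6 and 32.1 RPKM in knockdown cells, against 67.1 and 66.3 RPKM in control cells (−0.96 ± 0.06). SLC25A4, an exchanger of ADP and ATP, was at 7.82 and 7.45 RPKM in knockdown cells, against 13.96 and 12.97 RPKM in control cells (−0.74 ± 0.07). The groups overlapped in neither gene. Among lysosomal genes the membrane protein LAMP2 was at 46.4 and 48.7 RPKM in knockdown cells, against 29.3 and 29.9 RPKM in control cells (0.67), and PSAP, the precursor of the saposins, at 219 and 210.5 RPKM in knockdown cells, against 152 and 149.8 RPKM in control cells (0.50). Of 38 tested lysosome and autophagy genes 11 rose and 5 fell (28.9% and 13.2%), near the 22.5% and 11.7% of all tested genes. The median log2 fold change of these 38 was 0.03, against 0.07 over all tested genes. Fewer of them were called when either control replicate was left out.

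In the TGF-beta and BMP list of 24 tested genes 6 rose and 4 fell, near the shares of 22.5% and 11.7% of all tested genes. The median log2 fold change of this list was 0.09, against 0.07 over all tested genes. PMEPA1, which limits TGF-beta signalling, was at 6.12 and 5.30 RPKM in knockdown cells, against 1.58 and 1.59 RPKM in control cells (1.37 ± 0.10), and ID2, an inhibitor of basic helix-loop-helix factors, at 121 and 132 RPKM in knockdown cells, against 177 and 163 RPKM in control cells (−0.43 ± 0.06). The first was higher and the second lower in both knockdown libraries. Without control replicate 1, 4 rose and 1 fell, without control replicate 2, 2 rose and 3 fell, without knockdown replicate 2, 6 rose and 2 fell, and under median ratio scaling 3 rose and 5 fell.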
